A study of Mus musculus with 12 samples.

Results

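Regulatory CD4 T cells (Treg) were compared with effector CD4 T cells (Teff) across all genes, using the 3 Treg and 3 Teff libraries among the 12 RNA libraries of the series. The 6 libraries were taken by the cell type that their labels name. All cells were sorted, untreated and freshly isolated, from spleen and lymph node combined, and all mice were wildtype C57BL/6 Foxp3-GFP with a polyclonal T cell repertoire, so every group carries the same reporter. Treg were sorted as FOXP3+ CD25+. Teff were sorted as CD44high FOXP3- CD73low FR4low. The other subsets, whose levels are given only beside those of Treg and Teff, were Naive (CD44low) and Anergic (CD44high FOXP3- CD73high FR4high NRP1+) cells, with 3 libraries each. The labels give neither the age of the mice nor whether each replicate was its own animal, and p-values therefore cover only the spread of these samples, possibly a technical one. The Treg gate names no CD44 level, while Teff were all CD44high, so an effect of FOXP3 and an effect of CD44 state cannot be told apart here. In sorted bulk RNA, fewer expressing cells and less RNA per cell cannot be told apart either.

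Treg are CD4 T cells that restrain other lymphocytes and keep self-reactive responses in check, and their identity depends on the transcription factor FOXP3. They carry much of the high-affinity IL-2 receptor chain CD25, depend on IL-2 made by other cells, and act through inhibitory receptors, TGF-β activation, adenosine production and other routes. Teff are antigen-experienced helper cells, whose Th1, Th2, Th17 and follicular (Tfh) forms are set by T-bet, GATA3, RORγt and BCL6 and marked by their cytokines and homing receptors.

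The 6 libraries held 7569734 to 9527897 counts, within the 6909035 to 9527897 of all 12. Of the 13393 genes with enough counts to be tested by edgeR's quasi-likelihood test, 3894 (29.1%) differed between Treg and Teff at a Benjamini-Hochberg adjusted p under 0.05. Of these, 2006 (15% of the genes tested) were higher in Treg and 1888 (14.1%) were lower. A difference of at least 2-fold was called for 674 genes higher and 625 lower. All Treg libraries lay above all Teff libraries for 2860 of the 13393 genes tested, and below them for 2707. Absence of overlap between the groups was therefore common, and it is given below as a description only. The median log2 fold change of all genes tested was 0.00795, where a positive value is higher in Treg. Levels are TMM-scaled CPM, a gene's share of its library's counts, and "rose" and "fell" below describe Treg relative to Teff for genes that passed the test. The correlation of log2(CPM + 1) across genes, which are not independent replicates, was 0.991 to 0.992 between Treg libraries, 0.987 to 0.991 between Teff libraries and 0.946 to 0.953 between the subsets.

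**Figure D1:**
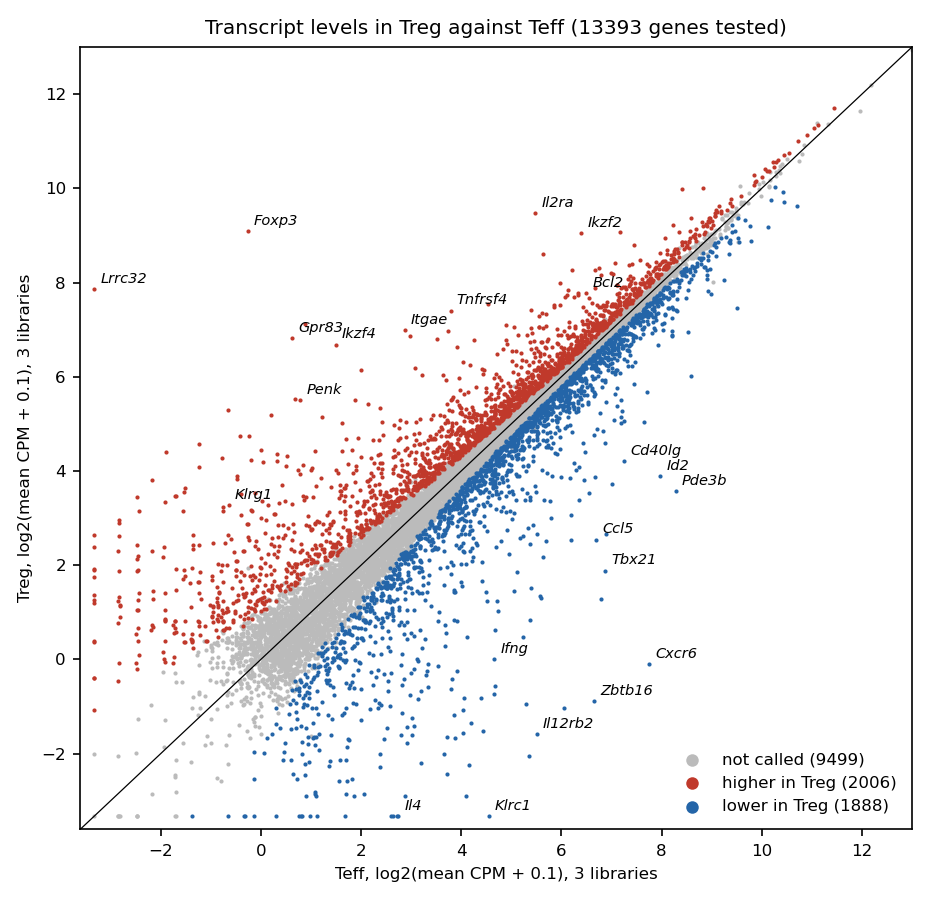
Mean level of each of the 13393 tested genes in 3 Teff libraries (x axis) and 3 Treg libraries (y axis), as log2(CPM + 0.1), with the diagonal marking equal levels. The 2006 genes higher in Treg are red, the 1888 lower are blue, and Foxp3, Lrrc32, Klrc1 and Cxcr6 lie farthest from the diagonal among the genes named.

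The genes behind the sort gates were read first, as a check of the labels and not as a finding. Foxp3 (X:7573644-7595245, plus strand, GRCm38) stood at 538, 531 and 562 CPM in the 3 Treg libraries and 0.812, 0.372 and 1.02 CPM in the 3 Teff libraries. The Treg libraries were all high and the Teff libraries all near 0 (log2 fold change 9.50 ± 0.143 SE, adjusted p = 1.45e-23). Of the exon length of Foxp3, 18.6% lies under the long noncoding gene Flicr on the same strand, and 18.7% lies opposite exons of Ccdc22, Gm36995 and Ppp1r3f, so some of these reads cannot be assigned to it with certainty. Il2ra, which encodes CD25, stood at 706, 663 and 761 CPM in Treg and 45.1, 38.8 and 49.6 CPM in Teff, with no overlap between the groups. Cd44, which encodes the hyaluronan receptor used to mark antigen experience, stood at 107, 119 and 123 CPM in Treg and 286, 304 and 295 CPM in Teff, all Treg libraries being lower. The gates for Teff also required low CD73 and FR4, and their genes Nt5e and Izumo1r were 3.2-fold and 4.19-fold higher in Treg. Nrp1, neuropilin-1, was 4.03-fold higher and Cd4 1.4-fold lower, so 5 of the 7 sort markers rose and 2 fell (median log2 fold change 2.01).

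Genes known as the Treg core programme were almost all higher in Treg. Of 32 tested members, 30 rose and 0 fell (93.8% called against 29.1% of all genes), with a median log2 fold change of 3.13. The list includes the sort markers Foxp3, Il2ra, Nt5e, Nrp1 and Izumo1r, and its genes were known from Treg beforehand, so its direction is no independent evidence. The members that did not pass were Prdm1, which encodes the repressor BLIMP-1 (log2 fold change 0.36 ± 0.157 SE, adjusted p = 0.0903), and the costimulatory receptor gene Icos (log2 fold change -0.33 ± 0.168 SE, adjusted p = 0.153).

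Lrrc32, which encodes GARP, the surface anchor that holds latent TGF-β on Treg, stood at 223, 236 and 238 CPM in Treg. No read was counted in any Teff library, against which Treg were at least 1894-fold higher (adjusted p = 1.01e-19), taking 3 counts over the group as the floor. Its level was 4.05 ± 0.783 CPM in Anergic and 0 ± 0 CPM in Naive (SD, n = 3). Gpr83, an orphan G protein-coupled receptor gene long used as a Treg marker, stood at 109, 118 and 111 CPM in Treg and 1.04, 1.61 and 1.66 CPM in Teff. The Treg libraries were again all higher (log2 fold change 6.29 ± 0.132 SE, adjusted p = 9.30e-21). Penk, which encodes the precursor of the enkephalin peptides, stood at 40.8, 46.9 and 48.8 CPM in Treg and 1.74, 1.49 and 1.66 CPM in Teff, a 27.6-fold difference with no overlap. Unlike Lrrc32, Penk was also present in Anergic cells, at 38.3 ± 11.7 CPM in Anergic and 0.0460 ± 0.0796 CPM in Naive (SD, n = 3).

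Among Ikaros family factors, which partner with FOXP3 in Treg, Ikzf4 (EOS) stood at 109, 104 and 94.2 CPM in Treg and 3.02, 2.6 and 2.55 CPM in Teff, 37.4-fold higher, and Ikzf2 (HELIOS) at 525, 529.6 and 540.5 CPM in Treg and 92.5, 80.1 and 79.4 CPM in Teff, 6.32-fold higher. Both were without overlap between the groups. The founding family member, Ikzf1 (IKAROS), went the other way, at 313 ± 14.6 CPM in Treg and 503 ± 12.1 CPM in Teff (SD, n = 3; log2 fold change -0.68), and was named here after its values were seen. Over the whole list of FOXP3 partners and Treg transcription factors, 11 of 30 tested members rose and 10 fell. That was 70% called against 29.1% of all genes, with a median of 0.0863 on the log2 scale. Bach2, a repressor that limits effector differentiation, was 2.14-fold higher (135, 126 and 126 CPM in Treg and 62.5, 57 and 61.7 CPM in Teff). Id2, an inhibitor of E proteins that supports effector cells, showed the sharpest fall of the list, from 252, 252 and 252 CPM in Teff to 14.7, 15.5 and 14.1 CPM in Treg (log2 fold change -4.10 ± 0.0748 SE, adjusted p = 6.10e-22). Runx3, a factor of Th1 and cytotoxic cells, fell 3.04-fold, and Tcf7, which encodes the memory-linked factor TCF-1, fell 1.94-fold, from 1060, 1130 and 1162 to 609, 558 and 562 CPM. Gata3 did not pass the test, at 136 ± 2.36 CPM in Treg and 136 ± 11 CPM in Teff (SD, n = 3; adjusted p = 0.981).

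In the IL-2 pathway the receptor α chain gene Il2ra was higher in Treg, which were sorted as FOXP3+ CD25+. For Il2ra, selection by the gate and a trait of FOXP3+ cells cannot be told apart. The STAT5 target Cish was also higher, while the shared chains did not pass the test. Of 16 tested genes of IL-2 and common gamma chain signalling, Il2ra among them, 10 rose and 2 fell. That was 75% called against 29.1% of all genes (median log2 fold change 0.538). The β and γ chains did not pass the test, Il2rb standing at 556 ± 10.5 CPM in Treg and 544 ± 1.45 CPM in Teff and Il2rg at 165 ± 11 CPM in Treg and 173 ± 18.7 CPM in Teff (SD, n = 3). Cish, a STAT5 target that damps cytokine and TCR signalling, stood at 146, 138 and 129.7 CPM in Treg and 29.3, 34.2 and 25 CPM in Teff. All Treg libraries were above all Teff libraries (log2 fold change 2.22 ± 0.0905 SE, adjusted p = 1.68e-15). Stat5a, a transducer of the IL-2 signal, rose 2.04-fold, and Il4ra, the IL-4 receptor chain, rose 2.23-fold. Il7r, which encodes the IL-7 receptor that keeps conventional T cells alive, fell 2.99-fold, from 403, 348 and 361 to 105, 129 and 138 CPM. Il9r also fell, 4.35-fold.

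Treg-associated suppressive molecules were mostly higher. Of 16 tested members 12 rose and 3 fell (93.8% called against 29.1% of all genes), with a median log2 fold change of 1.73. The list shares Lrrc32, Penk, Nt5e and other members with the Treg core. Ctla4, which strips costimulatory ligands from antigen-presenting cells, stood at 29.7, 24.7 and 26.8 CPM in Treg and 5.68, 4.96 and 5.23 CPM in Teff (5.11-fold higher). Lag3, an inhibitory receptor for MHC class II, stood at 22, 27.4 and 26.6 CPM in Treg and 6.49, 1.98 and 5.48 CPM in Teff, without overlap. Il10, chosen after its values were seen, was low in absolute terms, at 5.16 ± 1.27 CPM in Treg and 0.163 ± 0.190 CPM in Teff (SD, n = 3), and 28.8-fold higher. The members that fell were Prf1, the pore-forming perforin gene (2.64-fold), the galectin-1 gene Lgals1 (1.72-fold) and Fgl2 (1.54-fold). Il12a, which encodes a chain of IL-35, had 0 counts in both groups, so only its partner chain Ebi3 could be tested. Ebi3, chosen after its values were seen, rose 3.29-fold.

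Genes of the TGF-β pathway went both ways. Besides Lrrc32, Itgb8, the integrin chain that releases active TGF-β, stood at 34.3, 37.9 and 36.9 CPM in Treg and 1.62, 0.496 and 1.02 CPM in Teff (log2 fold change 5.08 ± 0.262 SE, adjusted p = 1.44e-13). Its level elsewhere was 59.6 ± 15.9 CPM in Anergic and 0.184 ± 0.162 CPM in Naive (SD, n = 3). The type I receptor gene Tgfbr1 rose 3.4-fold (94.2, 98.3 and 96.9 CPM in Treg and 26.7, 28 and 30.5 CPM in Teff), whereas the type II and type III receptor genes Tgfbr2 and Tgfbr3 fell 1.59-fold and 2.81-fold. Skil, an inhibitor of SMAD complexes and itself a TGF-β target, rose 2.72-fold, and the signal transducer gene Smad3 fell 1.67-fold. Of the ligands, Tgfb3 fell from 9.62, 10.04 and 10.6 CPM to 0.202, 1.27 and 0.235 CPM. Tgfb1, chosen after its values were seen, rose 1.29-fold. In all, 9 of 17 tested members rose and 5 fell (82.4% called against 29.1% of all genes, median 0.366 on the log2 scale).

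Several TNF receptor genes that costimulate Treg rose. Tnfrsf4 (OX40) stood at 161, 169 and 178 CPM in Treg and 13.1, 14.2 and 13.8 CPM in Teff, Tnfrsf9 (CD137) at 93.7, 122 and 119 CPM in Treg and 10.9, 12.5 and 10.8 CPM in Teff, and Tnfrsf18 (GITR) at 167, 189 and 183 CPM in Treg and 55.8, 57.4 and 61.1 CPM in Teff. None of the 3 overlapped between the groups, and the fold differences were 12.3, 9.76 and 3.09. Exons of Tnfrsf18 lie opposite another gene over 27.2% of their length. Tnfrsf1b, the TNF receptor TNFR2, rose 2.69-fold and its relative Tnfrsf1a, TNFR1, fell 1.67-fold. The adhesion and costimulation gene Cd226 fell 3.83-fold, from 153, 148 and 142 to 39.9, 34.7 and 40.8 CPM, and Cd28 fell 1.52-fold. Of the 15 tested members of this list, 7 rose and 3 fell (66.7% called against 29.1% of all genes, median 0.142).

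Inhibitory receptors also went both ways, with 6 of 11 tested members higher and 3 lower. That was 81.8% called against 29.1% of all genes (median log2 fold change 0.399). Tigit, which competes with CD226 for the same ligand, stood at 40.1, 52.8 and 50.4 CPM in Treg and 13.8, 14 and 14.7 CPM in Teff. Cd200, the ligand of an inhibitory receptor on myeloid cells, rose 2.12-fold. Cd160 fell 7.66-fold and Lair1, a collagen receptor gene, fell 6.15-fold. Havcr2, which encodes TIM-3 and was chosen after its values were seen, had too few counts to be tested: 44 counts in Treg and 2 in Teff, a ratio of 20.5-fold, with an exact 95% counting interval of 5.36 to 175.

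**Figure D2:**
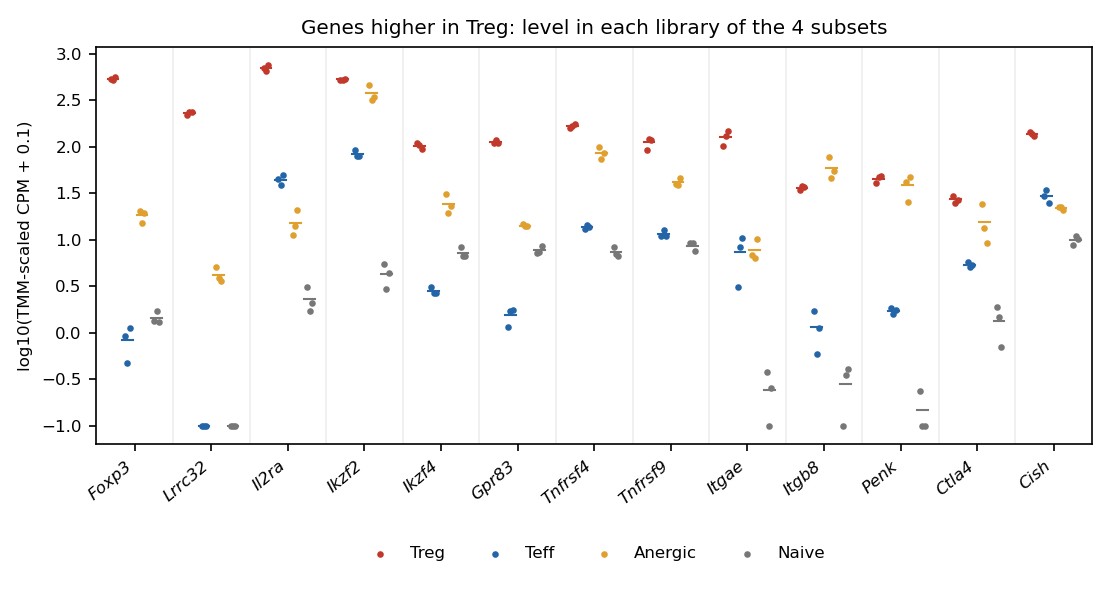
Level of 13 genes higher in Treg in each of the 12 libraries, as log10(TMM-scaled CPM + 0.1), with 3 points and a bar at the mean for each of Treg, Teff, Anergic and Naive. For each gene the 3 Treg points lie above the 3 Teff points, and the Anergic points lie near or above Treg for Penk and Itgb8 and far below for Lrrc32 and Il2ra.

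Of 12 genes with the steepest rise, Lrrc32, Foxp3 and Gpr83 are described above. Neb, which encodes the muscle filament protein nebulin, stood at 94.9, 153 and 169 CPM in Treg and 0.928, 1.74 and 2.55 CPM in Teff, 80.3-fold higher. Sdc4, a heparan sulfate proteoglycan gene, stood at 32.9, 41.9 and 42.4 CPM in Treg and 0.464, 0.496 and 0.637 CPM in Teff, and Gsta4, a glutathione transferase gene, at 25.1, 22.7 and 23.4 CPM in Treg and 0.464, 0 and 0.510 CPM in Teff. Both were without overlap, at 71.6-fold and 69.6-fold. Ryr2, an intracellular calcium channel gene, stood at 12.1, 17.4 and 12.2 CPM in Treg and had 3 counts in all Teff libraries together, a ratio of 112-fold, with an exact 95% counting interval of 38.1 to 547. Gbp2b, an interferon-inducible GTPase gene, stood at 16.4, 24.8 and 22.1 CPM in Treg and 0, 0 and 0.510 CPM in Teff. It is close in sequence to Gbp2, so how reads were split between them is uncertain. Zc3h12c, an RNase gene of the Regnase family, Ntn4, which encodes a netrin, Fam160a1 and Cep112 rose as well, Fam160a1 49.6-fold. The other 3 had 4 to 5 counts in all Teff libraries together, and their log2 fold changes, 5.82 for Zc3h12c, 5.66 for Ntn4 and 5.63 for Cep112, moved to 7.07 without Teff replicate 3, 6.33 without Teff replicate 2 and 7.15 without Teff replicate 2. The lowest values over the alternatives were 5.28, 5.06 and 5.11. Fam160a1 stood at 19.1 ± 7.49 CPM in Anergic and 0 ± 0 CPM in Naive (SD, n = 3), so the Anergic level was close to the Treg level of 14.2, 17.5 and 19.2 CPM. By size of the CPM difference, the leading genes that rose also included Smc4, a condensin subunit (972, 1016 and 1035 CPM in Treg and 314, 328 and 372 CPM in Teff), and Samhd1, a nucleotide hydrolase that restricts viruses (1031 ± 23 CPM in Treg and 457 ± 33.2 CPM in Teff; SD, n = 3).

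On the Teff side, genes of the Th1 programme, the type 1 helper fate that makes interferon-γ, formed a clear group. Of 12 tested Th1 regulators 9 fell and 3 rose (100% called against 29.1% of all genes), with a median log2 fold change of -2.02. Tbx21, which encodes the Th1 master factor T-bet (11:97098071-97115331, minus strand, GRCm38), stood at 118, 118 and 115 CPM in Teff and 4.14, 4.18 and 2.47 CPM in Treg. The Treg libraries were all far lower (log2 fold change -5.01 ± 0.176 SE, adjusted p = 1.13e-16). Il12rb2, the signalling chain of the IL-12 receptor, fell 187-fold, from 43.5, 47.8 and 45.1 to 0.202, 0.380 and 0.118 CPM. Its exons lie opposite those of Serbp1 over 40% of their length. Il18rap, a chain of the IL-18 receptor, fell 18.9-fold and Cxcr3, the chemokine receptor of Th1 cells, 9.78-fold. Those that rose included both chains of the interferon-γ receptor, Ifngr2 (3.83-fold) and Ifngr1 (1.47-fold).

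Cytotoxic and chemokine genes followed, with 8 of 12 tested members lower (75% called in either direction against 29.1% of all genes, median -1.29). The 1 that rose, the granule proteoglycan gene Srgn, lost its call without Teff replicate 1 or 2 or Treg replicate 3 (adjusted p = 0.0894, 0.0738 and 0.165). Ccl5, a chemokine gene of memory and cytotoxic cells, stood at 102, 119 and 88.7 CPM in Teff and 5.66, 6.59 and 4.94 CPM in Treg, and Nkg7, a regulator of granule release, at 46, 52.9 and 45.5 and 3.03, 2.41 and 1.65 CPM. Both were without overlap, 18.1-fold and 20.03-fold lower. Fasl, the death ligand, fell 9.69-fold and the chemokine gene Xcl1 59.9-fold (log2 fold change -5.90, and -6.73 without Treg replicate 1). Gzmk, singled out after its values were seen, had 152 counts in Teff and 0 in Treg, at least 54.3-fold lower, while Gzmb did not pass the test (4.72 ± 2.08 CPM in Treg and 3.7 ± 0.961 CPM in Teff; SD, n = 3).

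Killer lectin receptors, best known from NK cells and also carried by cytotoxic and innate-like T cells, were lower in 7 of 8 tested members. In this list 100% were called, against 29.1% of all genes. The median log2 fold change was -6.31, or -6.01 with Klrc1 and Klre1, at 0 in Treg, set at their bounds. Klrc1, which encodes NKG2A (6:129666015-129678973, minus strand, GRCm38), stood at 23.4, 24.2 and 22.2 CPM in Teff and 0 in every Treg library, at least 204-fold lower (adjusted p = 1.68e-12). Klrk1, which encodes the activating receptor NKG2D, fell from 48.5, 35.2 and 39.5 to 0.303, 0.127 and 0 CPM. The exception was Klrg1, a receptor of terminally differentiated T cells and of a Treg subset, which rose 17.5-fold (4.75, 10.4 and 13.6 CPM in Treg and 0.232, 0.496 and 0.892 CPM in Teff). Some Klr genes, such as Klrc1 and Klrc2, are close copies, so the assignment of reads between those is uncertain.

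The tested markers of NK, innate-like and γδ T cells were mostly lower in Treg as well. This list shares Klrb1c with the killer lectin receptors and Eomes with the Th1 regulators, so it is partly the same evidence. Of the 13 markers listed, 5 could be tested, of which 4 fell, 0 rose and Trdc did not pass the test (80% called, median -3.22). Their summed level was 146 to 198 CPM over the Teff libraries and 8.29 to 10.9 CPM over the Treg libraries. Most of the Teff sum came from Zbtb16, which encodes PLZF, the factor of innate-like T cells (123, 91.7 and 85 CPM, against 0.707, 0.380 and 0.235 in Treg), and Klrb1c, which encodes NK1.1 (52, 29.8 and 34.9 CPM, against 0.303, 0.253 and 0.705). The NK cell marker Ncr1 had 1 count in the Teff libraries and 0 in Treg, and Klra8 and Klra4 had 0 in both. Innate-like T cells pass a CD44high gate, and their part in the lower Th1, cytotoxic and killer lectin levels of Treg was not tested. Zbtb16 in Anergic cells, also CD44high, was 23.1 ± 5.17 CPM (SD, n = 3).

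**Figure D3:**
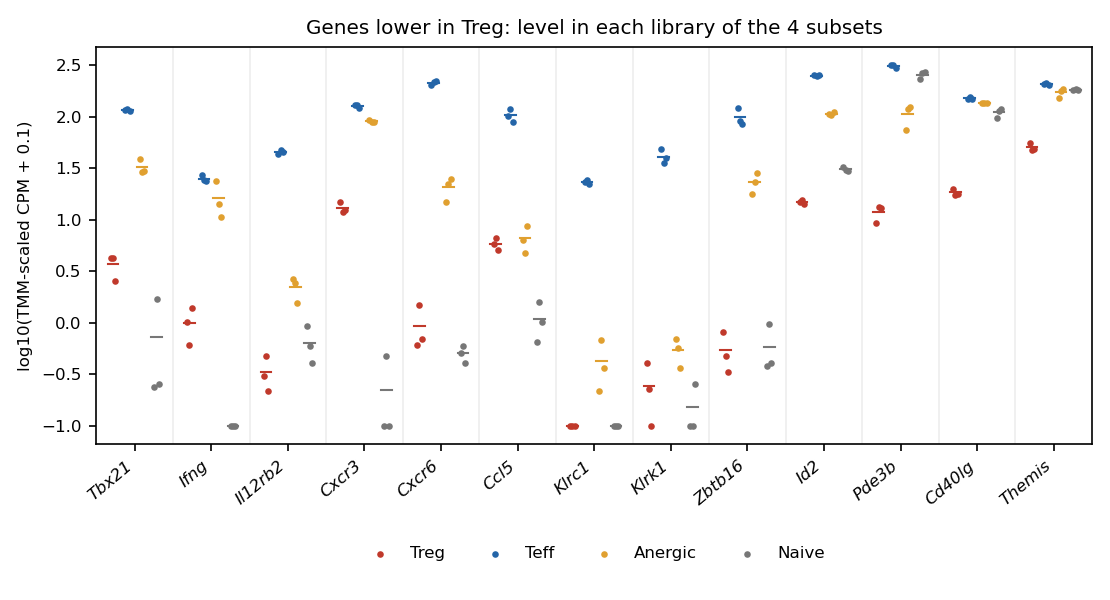
Level of 13 genes lower in Treg in each of the 12 libraries, as log10(TMM-scaled CPM + 0.1), with 3 points and a bar at the mean per subset. The 3 Treg points lie below the 3 Teff points for every gene shown, Klrc1 being at 0 in all Treg libraries. Id2, Pde3b, Cd40lg and Themis are lower in Treg than in Naive as well.

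Many effector cytokine genes, though not all, were scarce in these unstimulated cells, and 9 of 17 could be tested. Of these 6 fell and 3 rose (100% called against 29.1% of all genes), with a median log2 fold change of -3.04. Cd40lg, the ligand through which helper T cells activate B cells and dendritic cells, stood at 149.6, 155 and 150.1 CPM in Teff and 19.8, 17.5 and 17.8 CPM in Treg (log2 fold change -3.04 ± 0.0830 SE, adjusted p = 1.56e-18). Its Naive level was 110.3 ± 11.2 CPM (SD, n = 3), also above Treg. Ifng stood at 27.4, 24 and 23.8 CPM in Teff and 0.909, 0.507 and 1.29 CPM in Treg, and shares 25.9% of its exon length with Gm49751. Il4, at 4.99, 8.3 and 6.5 CPM in Teff, had no count in Treg and was at least 57.5-fold lower. Il21, the follicular helper cytokine, fell 12.5-fold. Il2, chosen after its values were seen, had 50 counts in Teff and 1 in Treg, a ratio of 53.6-fold, with an exact 95% counting interval of 9.19 to 2158. The members that rose were Csf1, a macrophage growth factor (16.5, 21.8 and 22.5 CPM in Treg and 3.02, 4.83 and 7.01 CPM in Teff), and the lymphotoxin genes Lta (3.14-fold) and Ltb (1.37-fold). Il17a, Il5, Il3 and Il9 had 0 counts in both groups.

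Other helper programmes gave mixed counts. Of 6 tested Th2 genes 2 rose and 2 fell (66.7% called against 29.1% of all genes, median -0.109). The chemokine receptor gene Ccr8 was 4.09-fold higher and the IL-33 receptor gene Il1rl1 3.21-fold higher, and Il4 and Maf were lower. Of 8 tested Th17 genes 2 rose and 5 fell (87.5% called, median -2.02). With genes kept only at 5 CPM in 3 libraries, however, 2 fell, since fewer were tested. Rora, a Th17-linked nuclear receptor gene, fell 4.12-fold (36.6, 35.1 and 34.2 CPM in Treg and 169.7, 129.9 and 137 CPM in Teff), and Ccr6 rose 3.18-fold. In the follicular list 5 of 17 tested members rose and 8 fell (76.5% called, median -0.328). Tox, a factor of follicular and chronically stimulated T cells, rose 2.09-fold while its relative Tox2 fell 2.79-fold. Il6st, the shared receptor chain of IL-6, rose 1.89-fold, Pou2af1 fell 8.04-fold (log2 fold change -3.01, and -3.76 without Treg replicate 1), and Bcl6 did not pass the test (24.4 ± 1.75 CPM in Treg and 21.5 ± 2.06 CPM in Teff; SD, n = 3).

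**Figure D4:**
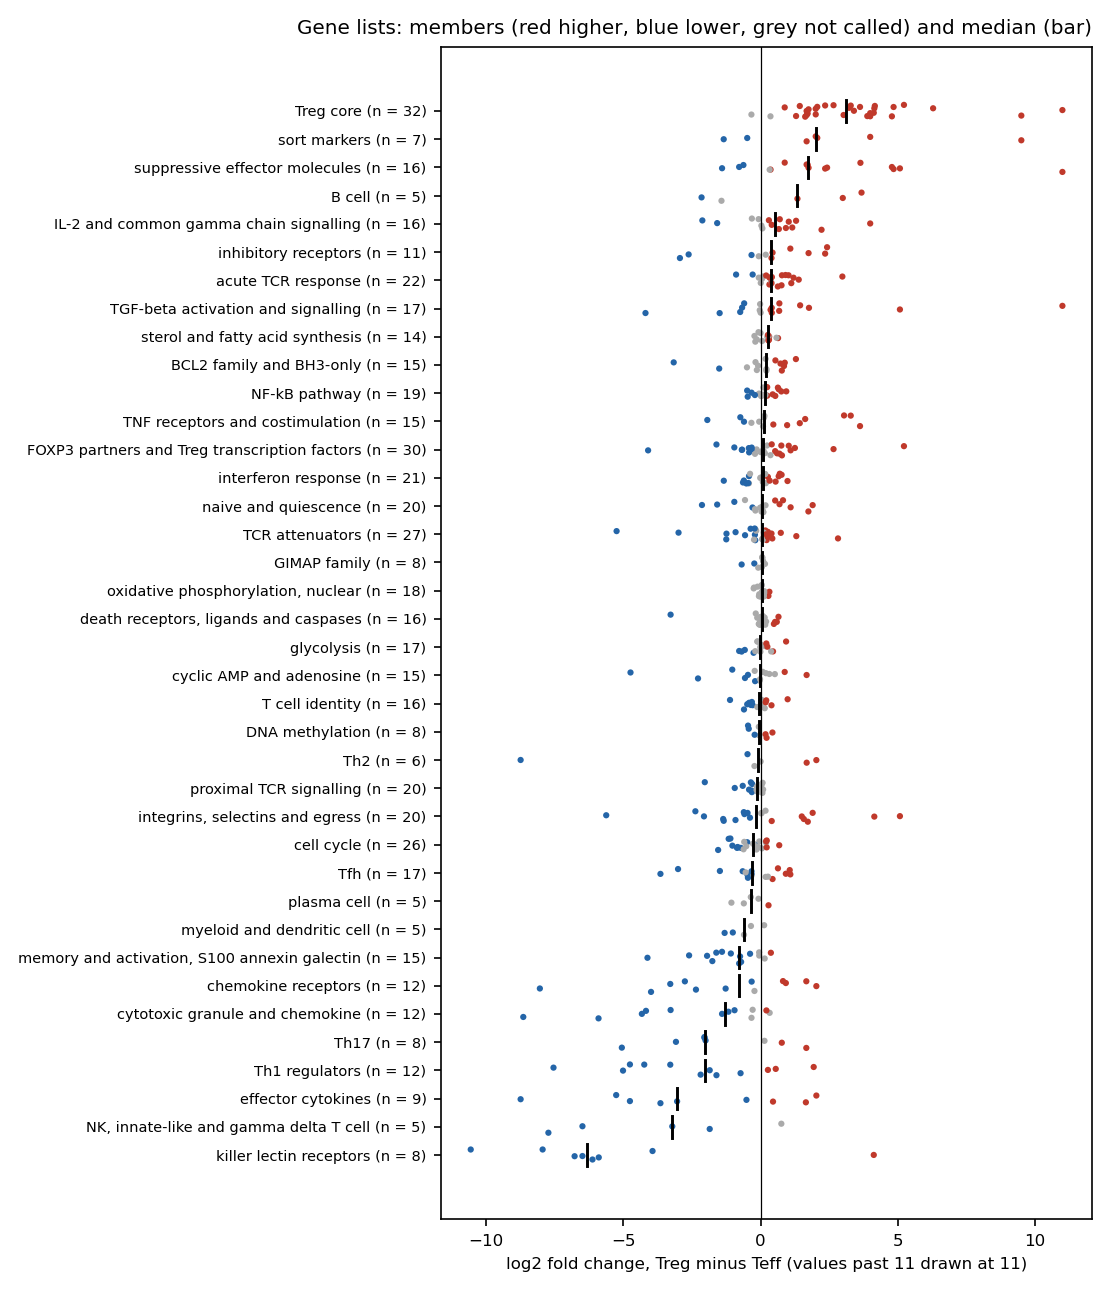
Log2 fold change, Treg minus Teff, of every tested member (points, red higher, blue lower, grey not called) of each gene list with at least 5 tested members, with the list median as a bar. The Treg core has the highest median (3.13) and the killer lectin receptors the lowest (-6.31), and most lists straddle 0.

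Among homing and adhesion genes, chemokine receptors went both ways. Ccr7, the lymph node chemokine receptor, stood at 111, 107 and 97.6 CPM in Treg and 50.3, 65.7 and 63.5 CPM in Teff. Treg libraries were all higher, 1.76-fold, and the Naive level was 229 ± 4.68 CPM (SD, n = 3). Of the receptors of inflamed or peripheral tissue, Cxcr6 stood at 203, 216 and 225 CPM in Teff and 0.505, 1.39 and 0.588 CPM in Treg (log2 fold change -8.04 ± 0.187 SE, adjusted p = 7.20e-20), and Ccr2 fell 5.11-fold. Altogether 4 of 12 tested chemokine receptors rose and 7 fell (91.7% called against 29.1% of all genes, median -0.798). Besides Ccr7, those that rose were Ccr6 (3.18-fold) and Ccr8 (4.09-fold), receptors of mucosal tissue and skin, and Cxcr4, the bone marrow homing receptor (1.9-fold). Among 20 integrin, selectin and egress genes 7 rose and 10 fell (85% called, median -0.183). Itgae (CD103), which binds epithelial cadherin, stood at 101, 131 and 147 CPM in Treg and 3.02, 8.3 and 10.3 CPM in Teff, 17.7-fold higher, and Itga6, a laminin receptor chain, rose 3.3-fold. Itgb1, the β1 chain gained by memory cells, stood at 719, 759 and 711 CPM in Teff and 162, 176 and 187 CPM in Treg. The collagen receptor chain Itga1 fell 49.3-fold, and Itgal, a chain of LFA-1, fell 1.88-fold.

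Genes of naive and quiescent cells did not move as a block: 6 of 20 rose and 4 fell (50% called against 29.1% of all genes, median 0.0662). Besides Bach2 and Ccr7, those that rose included Igfbp4 (139, 156 and 173 CPM in Treg and 29.9, 59.99 and 50.1 CPM in Teff) and Foxo1 (1.61-fold), a factor that drives Ccr7 and Il7r. Dapl1, a gene of naive cells, fell 4.39-fold, while Klf2 (332 ± 17.4 CPM in Treg and 324 ± 23.4 CPM in Teff) and Lef1 (314 ± 2.2 CPM in Treg and 300.1 ± 9.11 CPM in Teff; SD, n = 3) did not pass the test. Memory genes of the S100, annexin and galectin families were lower, 11 of 15 having fallen (80% called in either direction, median -0.779). Ahnak, a large scaffold protein of memory cells, stood at 1795, 1565 and 1637 CPM in Teff and 731, 819 and 810.0 CPM in Treg, with 80.3 ± 1.88 CPM in Naive (SD, n = 3), so Treg lay between them. S100a6 fell 3.86-fold and Anxa2 3.06-fold. The 1 member of the list that rose, Emp3, lost its call without Teff replicate 1 or 3 or Treg replicate 2 (adjusted p = 0.114, 0.0708 and 0.0908).

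Some transcripts of the proximal T cell receptor machinery were lower. None of 20 tested proximal genes rose and 8 fell (median -0.126), against a background of 14.1% of all genes lower. Themis, an adaptor that tunes TCR signals in developing T cells, had the greatest fall of the list, 4.09-fold (210.2, 212 and 202 CPM in Teff, 55.6, 48 and 48.7 in Treg). The TEC kinase gene Txk fell 1.92-fold, and the kinase gene Zap70 fell 1.34-fold. Lck (471 ± 19.3 CPM in Treg and 510.2 ± 20.1 CPM in Teff) and Cd3e (445 ± 12.8 CPM in Treg and 434 ± 13.6 CPM in Teff; SD, n = 3) did not pass the test.

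Attenuators of that signal split evenly, 10 of 27 higher and 10 lower (74.1% called against 29.1% of all genes, median 0.0588). With libraries scaled by total counts, 6 were lower. Dusp4, a phosphatase of MAP kinases, stood at 65.5, 72.3 and 58.2 CPM in Treg and 9.39, 8.18 and 10.1 CPM in Teff, while Dusp6, a phosphatase of ERK, fell 2.36-fold. In the same way Spry1 rose 2.47-fold (its exons lie opposite another gene over 24.4% of their length) while Spry2, another inhibitor of receptor signalling to ERK, had 3.44 CPM in Teff on average and fell, with a Teff to Treg ratio of 45.5-fold, with an exact 95% counting interval of 12.2 to 382. The ubiquitin ligase gene Nedd4 fell 7.94-fold (83.5, 77.2 and 85.5 CPM in Teff, 8.29, 7.98 and 14.8 in Treg) and its relative Nedd4l rose 1.67-fold. Genes induced soon after TCR engagement were more often higher, 15 of 22 having risen and 2 fallen (median 0.395), with 15% of all genes higher. Nr4a1, the nuclear receptor whose level follows TCR signal strength, stood at 126, 137 and 127 CPM in Treg and 53, 50.3 and 45.4 CPM in Teff (2.62-fold). Rgs16, a regulator of G protein signalling, rose 7.9-fold and Rgs1 2.17-fold, while Fosl2 fell 1.85-fold and Fosb did not pass the test (222 ± 87.5 CPM in Treg and 220.2 ± 59.6 CPM in Teff; SD, n = 3).

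Among cyclic AMP and adenosine genes the greatest difference was in Pde3b, a phosphodiesterase that degrades cyclic AMP. Pde3b stood at 319, 317 and 298 CPM in Teff and 9.2, 13.2 and 12.9 CPM in Treg (log2 fold change -4.74 ± 0.154 SE, adjusted p = 3.56e-17), with 106 ± 27.2 CPM in Anergic and 257 ± 19.7 CPM in Naive (SD, n = 3), so Treg were the lowest of the 4 subsets. Pde7a, another phosphodiesterase, fell 4.85-fold (129, 111 and 109 and 22.6, 24.8 and 24.7 CPM), Pde4b 1.48-fold, and the adenylate cyclase gene Adcy7 2.04-fold. Nt5e and Entpd1, which turn extracellular nucleotides into adenosine, rose, Entpd1 1.84-fold, although Nt5e was used by the sort. They were the 2 of 15 that rose, 6 falling (53.3% called against 29.1% of all genes, median -0.0342).

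NF-κB genes showed small differences in both directions: 8 of 19 rose and 4 fell (63.2% called against 29.1% of all genes, median 0.170). Rel, the c-Rel subunit that Treg need to develop, rose 1.69-fold and the inhibitor gene Nfkbia 1.58-fold. Malt1, which links the TCR to NF-κB, fell 1.38-fold.

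The series concerns BATF and BIM, so their genes were read in every library. Batf, an AP-1 family factor, stood at 30.7, 47 and 35.3 CPM in Treg and 31.4, 29.8 and 34 CPM in Teff. The groups overlapped and the test was not passed (log2 fold change 0.24 ± 0.120 SE, adjusted p = 0.150). Leaving out Treg replicate 1 gave a log2 fold change of 0.37, which passed (adjusted p = 0.0255). Bcl2l11, which encodes the pro-apoptotic protein BIM, stood at 56, 59.9 and 62.1 CPM in Treg and 42.2, 39.8 and 40.03 CPM in Teff, with no overlap (log2 fold change 0.54 ± 0.0908 SE, adjusted p = 4.56e-05). Bcl2, which binds and holds BIM, was higher as well, at 228, 208 and 224 CPM in Treg and 109.5, 82.7 and 77.5 CPM in Teff (log2 fold change 1.29 ± 0.0984 SE, adjusted p = 2.04e-10). In the BCL2 family list 6 of 15 rose and 2 fell (53.3% called against 29.1% of all genes, median 0.212). Mcl1, a survival gene that Treg require, rose 1.66-fold (538, 534 and 555 CPM in Treg and 303, 338 and 342 CPM in Teff). The lower members were Bcl2a1d, whose reads cannot be told with certainty from those of Bcl2a1b, and the rare Bik (0.188 ± 0.0556 CPM in Treg and 1.81 ± 0.584 CPM in Teff; SD, n = 3). Death receptor and caspase genes gave 4 of 16 higher, among them Fas (1.57-fold) and Casp8 (1.4-fold), and 1 lower, Fasl (median 0.0377), so 31.2% of the list was called, close to the 29.1% of all genes.

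Proliferation genes were lower in Treg on balance. Of 26 tested cell cycle genes 10 fell and 4 rose (53.8% called against 29.1% of all genes, median -0.264). Without Teff replicate 1 or without Treg replicate 1, 2 rose. Mki67, the marker of cycling cells, stood at 129.8, 142 and 160.3 CPM in Teff, 63.5, 70.6 and 67.8 CPM in Treg and 3.44 ± 0.733 CPM in Naive (SD, n = 3), so both subsets were above Naive levels. Top2a, a topoisomerase of dividing cells, fell 1.65-fold, while Cdk6, a kinase of the first growth phase, rose 1.6-fold.

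Against the 29.1% of all tested genes called in either direction, metabolic genes gave few called differences in oxidative phosphorylation and more in glycolysis. Lipid synthesis was near that share. In glycolysis 4 of 17 rose (1 to 2 without Teff replicate 1, Teff replicate 3 or Treg replicate 3) and 4 fell (47.1% called, median -0.00486), the glucose transporter gene Slc2a3 rising 1.37-fold and the phosphofructokinase gene Pfkp falling 1.61-fold. Of 18 nuclear genes of oxidative phosphorylation 2 rose and 0 fell (11.1% called, median 0.0532), 0 rising with DESeq2 or without Teff replicate 1, Treg replicate 1 or Treg replicate 3, and 1 with DESeq2 size factors or without Teff replicate 2 or Treg replicate 2. Sterol and fatty acid synthesis had 5 of 14 higher and 0 lower (35.7% called, median 0.258), 3 higher without Teff replicate 1 or Treg replicate 3.

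Interferon response genes went both ways. Of 21 tested, 7 rose and 6 fell (61.9% called against 29.1% of all genes, median 0.0824). Those that rose included the interferon-γ-inducible GTPases Iigp1 (1.98-fold), Gbp7 (1.58-fold), Gbp2 (1.62-fold) and Igtp (1.46-fold). Those that fell included antiviral genes of the type I response, Mx1 (28.9, 30.7 and 21.3 CPM in Teff, 9.8, 13.3 and 9.05 in Treg), Rtp4, Ifit3 and Irf7. Among 8 GIMAP genes, small GTPases of lymphocyte survival, 0 rose and 2 fell (median 0.0543), or 25% called against 29.1% of all genes, with 1 rising with limma voom, the replicate block or the 6 libraries alone. Gimap4 fell 1.61-fold, and Gimap6 1.17-fold, the latter losing its call without Teff replicate 3 (adjusted p = 0.0579). Of 8 DNA methylation genes 3 rose and 3 fell (75% called, median -0.0531). The maintenance enzyme gene Dnmt1 fell 1.35-fold and the de novo enzyme gene Dnmt3a rose 1.35-fold, 1 member rising when libraries were scaled by total counts or without Teff replicate 2, Teff replicate 3 or Treg replicate 2.

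Both subsets held most genes of CD4 T cells at high levels, Cd28 being low (10.4 CPM in Treg and 15.8 CPM in Teff). Of 16 tested T cell identity genes 4 rose and 7 fell (68.8% called against 29.1% of all genes, median -0.0480). Without Treg replicate 2 or Treg replicate 3, 2 rose. Cd2, an adhesion receptor gene, rose 1.98-fold (563, 606 and 618 CPM in Treg and 274, 322 and 307 CPM in Teff), and Thy1, a surface glycoprotein gene, fell 2.16-fold (452, 534 and 469 CPM in Teff, 225, 214 and 235 in Treg).

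Markers of other cells differed in level. The 10 B cell markers summed to 414 to 507 CPM in Treg and 181 to 197 CPM in Teff, nearly all of it Ighm (398, 441 and 488 CPM in Treg and 179, 168 and 176 CPM in Teff), and the B cell marker Ms4a1 had 7 counts in each group. Of the 5 tested, 3 rose and 1 fell (80% called against 29.1% of all genes, median 1.34). With limma voom, with DESeq2 size factors or without Treg replicate 3, 2 fell. Besides Ighm, the immunoglobulin heavy chain gene Ighd rose 12.8-fold (5.42 ± 0.908 CPM in Treg and 0.412 ± 0.157 CPM in Teff) and Cd79b, a signalling chain of the B cell receptor, rose 7.98-fold (5.97 ± 0.411 CPM in Treg and 0.739 ± 0.156 CPM in Teff; SD, n = 3). Cd22, an inhibitory lectin of B cells, fell 4.44-fold (2.87 ± 0.777 CPM in Treg and 12.6 ± 3.00 CPM in Teff; SD, n = 3). The part of B cell RNA in the differences between the subsets was not tested. Of the CD8 markers Cd8b1 rose (11.1, 8.87 and 10.5 CPM in Treg and 3.6, 3.59 and 5.1 CPM in Teff) and Cd8a had 19 counts in Treg and 14 in Teff. Plasma cell markers gave 1 of 5 higher, Xbp1, and 0 lower, so 20% were called against 29.1% of all genes. Xbp1 lost its call without Teff replicate 3 or Treg replicate 3 (adjusted p = 0.0925 and 0.0503). Of the plasma cell markers 1 to 2 were lower with DESeq2, limma voom, the replicate block or no filter, or without Teff replicate 2 or 3 or any 1 Treg replicate. They summed to 66.3 to 87.1 CPM in Treg and 63.2 to 80.5 CPM in Teff. Of 5 tested myeloid markers 2 fell, Lyz2 and Csf1r (40% called against 29.1% of all genes). Of them 0 fell without Treg replicate 2 or Treg replicate 3, and Csf1r did not with DESeq2 or without Teff replicate 2 or Teff replicate 3. The 15 listed myeloid markers summed to 6.82 to 12.4 CPM in Treg and 15.7 to 17 CPM in Teff. Erythroid and platelet markers summed to 0.606 to 0.823 and 0.348 to 0.510 CPM and could not be tested. Of stromal and endothelial markers Pecam1 alone was tested, and it rose 1.45-fold (166, 149 and 161 CPM in Treg and 110.2, 108 and 109 CPM in Teff), with the other 8 at 0 to 17 counts in a group.

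Promoter sequences from RefSeq (GRCm38.p6) were available for 158 of the 222 genes eligible to be named. Windows from 250 bases before to 50 bases after each start were searched on both strands for forkhead TGTTTAC, T-box GGTGTGA, RUNX TGTGGTT and AP-1 TGAGTCA, short forms of the sites of factor families described above. RUNX letters stood in a promoter of 8.79% of the 398 genes at least 2-fold lower in Treg, 5.88% of the 476 at least 2-fold higher and 4.78% of the 8878 tested genes with a promoter. AP-1 letters stood in 8.29%, 6.72% and 4.18%, T-box letters in 5.03%, 4.83% and 4.08%, and forkhead letters in 3.52%, 3.99% and 3.19%, in the same order. Of all 32851 promoters in the table, 5.27% held the RUNX, 5.20% the AP-1, 3.98% the T-box and 3.65% the forkhead letters. The T-box form ends in the letters that open the AP-1 form, so matches of these can overlap. A match is a run of letters and not a shown binding site. Examples chosen after the values were seen are printed below, 5′ to 3′ along the gene and ending just before its start, with the motif in capitals, because they show where these letters lie in genes that differed. The RUNX letters lie 135 and 127 bases before a start of Runx3 itself, in reverse complement, and 129 bases before that of Klrk1. The T-box letters lie 13 bases before the start of Nkg7, and the AP-1 letters 15 bases before a start of Tnfrsf9, the 1 gene of these 4 that was higher in Treg.
Runx3, chr4:135120395-135120644, plus strand: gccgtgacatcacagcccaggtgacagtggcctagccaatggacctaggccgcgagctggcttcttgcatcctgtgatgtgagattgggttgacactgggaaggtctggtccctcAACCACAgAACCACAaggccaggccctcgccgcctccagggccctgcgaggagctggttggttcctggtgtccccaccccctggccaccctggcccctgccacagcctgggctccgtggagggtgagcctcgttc
Klrk1, chr6:129623865-129624114, minus strand: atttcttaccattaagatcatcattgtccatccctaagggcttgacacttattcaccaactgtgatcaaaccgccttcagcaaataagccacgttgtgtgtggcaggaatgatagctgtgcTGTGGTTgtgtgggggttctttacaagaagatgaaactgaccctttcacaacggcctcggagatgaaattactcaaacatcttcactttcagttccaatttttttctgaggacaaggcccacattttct
Nkg7, chr7:43436888-43437137, plus strand: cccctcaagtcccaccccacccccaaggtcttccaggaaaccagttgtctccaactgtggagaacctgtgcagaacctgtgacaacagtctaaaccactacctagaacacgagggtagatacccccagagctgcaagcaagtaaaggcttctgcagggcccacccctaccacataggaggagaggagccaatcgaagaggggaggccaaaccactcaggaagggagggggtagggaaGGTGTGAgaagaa
Tnfrsf9, chr4:150927749-150927998, plus strand: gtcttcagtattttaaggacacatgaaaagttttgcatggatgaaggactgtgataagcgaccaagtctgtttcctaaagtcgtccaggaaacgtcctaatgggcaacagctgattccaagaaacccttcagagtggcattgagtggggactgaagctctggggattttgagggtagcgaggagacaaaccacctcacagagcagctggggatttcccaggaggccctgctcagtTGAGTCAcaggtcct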

How the data were processed

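Each of the 4 subsets of sorted mouse CD4 T cells gave 3 total RNA libraries. Per the labels' protocols, QIAGEN's RNeasy was used for extraction and Takara's stranded SMARTer Pico kit for library preparation. The authors deposited unnormalised counts of reads per gene, made per the series design text with Trimmomatic, HISAT2, SAMtools, featureCounts and edgeR, and per the submitters' processing notes on GRCm38 (mm10). Neither the release of the annotation nor how featureCounts treated strand is given here, and reads over 2 overlapping genes may have gone to either.

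The table of 54532 entries was filtered with filterByExpr and fitted in edgeR 4.0.16 (R 4.3.3) with TMM scaling and 1 model of group means over all 12 libraries (8 residual degrees of freedom before moderation, biological coefficient of variation 0.0764). Treg minus Teff was tested with the quasi-likelihood F test, two-sided, with Benjamini-Hochberg adjustment over 13393 genes. SE is the absolute log2 fold change divided by the square root of F. In simulated counts of the same 13393 genes, all genes shared 1 dispersion and changes were placed only in genes with ample counts. Of these, 100 of 100 changed 2-fold and 100 of 100 changed 4-fold were found, with 15 false calls. Recovery of changes in genes with few counts or a wider spread was therefore not tested. Total counts were 7569734 to 9527897, so precision at a few counts is poor. Intervals and the floor of 3 counts over a group cover counting error only.

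The members and the 41 gene lists were chosen with earlier results of these data known, and lists share members. Genes named were Foxp3, Batf, Bcl2l11, Bcl2, the sort markers, the 12 highest and 12 lowest log2 fold changes of called genes (mean in the higher group 10 CPM or more, libraries of the groups not overlapping), leaving out predicted, RIKEN, ribosomal, mitochondrial, pseudogene, date-like and receptor segment names, the 6 largest CPM differences in each direction, and up to 4 members higher and 4 lower per list, by adjusted p. Some genes are not reported here. Other members are given where not called, or as chosen after their values were seen. For names on several entries the first was used, and 27 date-like names (0.182% of counts) were kept in the tests but are not named. Alternatives were DESeq2 1.42.0, limma voom 3.58.1, other scalings and filters, a replicate block, the 6 libraries alone and leaving out each of those 6. Positions and overlaps came from GENCODE vM21. The accessibility data of the series' design were not used here.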

Additional observations from a re-analysis of the deposited data

How the results depend on the processing

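No count of higher or lower genes moved by over 1.5 times under any of 14 alternatives, and no gene called in both changed direction. Against 2006 higher and 1888 lower, DESeq2 gave 1625 and 1654, limma voom 2034 and 1888, DESeq2 size factors 1901 and 1991, scaling by total counts 2002 and 1512, no filter 1992 and 1986, a minimum of 5 CPM in 3 libraries 1742 and 1693, and the 6 libraries alone 2017 and 1966. Leaving out each of the 6 Treg and Teff libraries in turn gave 1636 to 1789 higher and 1598 to 1790 lower. With the replicate number as a block, 2248 rose and 2095 fell, including 3891 of the 3894 genes called without it. The labels do not say that a number pairs samples. Deviations of same-numbered Treg and Teff libraries correlated at only 0.0909, 0.0473 and 0.0817. Each Treg library nevertheless correlated best with the Teff library of its own number, a hint of pairing from the data only. Of the 222 genes eligible to be named, 197 stayed on their side of the threshold in all 14 alternatives, 25 changed side and 0 reversed. Of 82 list counts, 64 stayed within 1.5 times throughout. Depth limits genes with few counts, such as Il2, Havcr2 and Spry2, to wide counting intervals.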

Other observations

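Gene families outside the lists were read after their values were seen, so their counts are descriptions. Over all genes tested, 15% were higher in Treg and 14.1% lower. Cytosolic ribosomal protein genes were higher in Treg in 58 of 80 tested members, with 0 lower and a median log2 fold change of 0.319, and the count was 43 without Teff replicate 1 and 43 to 63 over all alternatives. Their summed level was 34020, 35020 and 34330 CPM in the 3 Treg libraries and 25180, 29610 and 29050 CPM in the 3 Teff libraries. The Naive sum, 42100 ± 2780 CPM, was above both, and the Anergic sum, 26700 ± 2590 CPM, was near Teff (SD, n = 3). Guanylate-binding proteins, interferon-inducible GTPases, were higher in 6 of 11 tested members and summed to 843.8 ± 22.7 CPM in Treg and 587.7 ± 23.4 CPM in Teff (SD, n = 3). Several of them are close copies, so levels of single members are uncertain.

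T cell receptor segments differed by chain. Gamma chain segments were lower in all 5 tested members, from Trgv2 and Tcrg-V4 to Tcrg-C1, Tcrg-C2 and Tcrg-C4, and summed to 2.93 ± 0.965 CPM in Treg, 52.5 ± 3.93 CPM in Teff, 14.98 ± 2.25 CPM in Anergic and 0.322 ± 0.0844 CPM in Naive (SD, n = 3). Delta segments did not share this: 0 of 3 tested were lower and 1 was higher (0 with DESeq2, with the 6 libraries alone, or without Teff replicate 1, Teff replicate 2 or Treg replicate 3), and they summed to 6.66 ± 0.765 CPM in Treg and 4.08 ± 0.865 CPM in Teff (SD, n = 3). Of 21 tested beta variable segments 5 were higher in Treg and 3 lower, where 15% of all genes were higher and 14.1% lower. Trbv3 stood at 52.2 ± 4.59 CPM in Treg and 27 ± 3.58 CPM in Teff, Trbv12-1 at 15.4 ± 3.33 CPM in Treg and 3.5 ± 0.454 CPM in Teff, and Trbv13-2 at 23.2 ± 3.72 CPM in Treg and 34.8 ± 1.61 CPM in Teff (SD, n = 3).

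A few predicted or RIKEN-named genes, left out of the naming rule and chosen after their values were seen, were as steep as the known ones. The RIKEN gene 2610204G07Rik stood at 10.8 ± 1.46 CPM in Treg and 0.0811 ± 0.0705 CPM in Teff and Gm36723 at 0.377 ± 0.224 CPM in Treg and 16.2 ± 4.5 CPM in Teff (SD, n = 3). Flicr, the noncoding gene that overlaps Foxp3, stood at 21.6 ± 3.92 CPM in Treg and 0.903 ± 0.460 CPM in Teff, and the erythroid factor gene Gata1 at 18.6 ± 1.14 CPM in Treg and 0.775 ± 0.190 CPM in Teff (SD, n = 3), while the erythroid globin genes held at most 4 counts in a group.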
